A study of Mus musculus with 12 samples.

Results

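The 39 genes described here encode the machinery that copies DNA in S phase. They were listed by name, with earlier results of these data known, and 38 of the 39 had a row among the 21754 genes of the count table. Cdt1 was not analysed here. The list holds 10 helicase genes (Mcm2 to Mcm7, Cdc45, Gins1, Gins2 and Gins3), 3 licensing genes (Orc1, Orc6, Cdc6), 4 priming genes (Pola1, Pola2, Prim1, Prim2), and 3 genes of the elongating polymerases (Pold1, Pold2, Pole). It also holds 5 clamp and clamp loader genes (Pcna, Rfc2 to Rfc5), 2 genes of replication protein A (Rpa1, Rpa2), 2 genes for joining of lagging strand fragments (Fen1, Lig1), 5 genes of nucleotide supply (Rrm1, Rrm2, Tyms, Tk1, Dut) and 4 genes of chromatin assembly or inheritance (Chaf1a, Chaf1b, Uhrf1, Slbp). All 38 passed the filter of a mean count of at least 1, as did 15293 genes in all.

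RNA was measured by bulk SCRB-seq, a poly(A)-primed 3' method, in 12 libraries of bone marrow cells from untreated C57BL/6 mice without a genetic modification named on the labels. The 4 sorted populations were Siglec-H-negative pre-cDCs, which are precursors of conventional dendritic cells, the Siglec-H-positive precursors CCR9lo-B220lo (lo-lo) and CCR9lo-B220hi (lo-hi), and CCR9-high B220-high plasmacytoid dendritic cells (pDCs), with 3 libraries each. The study's figure legend names 3 individual mice as the source, while its general methods describe pooling of mice for precursor sorts, and nothing on the labels ties a library to an animal, so that p-values measure the spread between these libraries. The age and sex of the mice behind each library are not on the labels.

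The populations used here are those of the wells, and they go against the deposited labels in 8 of 12 libraries. The wells were taken as pre-cDC (A1, A5, A9), lo-lo (A2, A6, A10), lo-hi (A3, A7, A11) and pDC (A4, A8, A12), an order that follows a match of each library to the study's own per-sample source values. The deposited labels give A1 to A3 to pre-cDC, A4 to A6 to CCR9lo-B220lo, A7 to A9 to CCR9lo-B220hi and A10 to A12 to pDC, and they name the same population only for A1, A6, A7 and A12. That match used values of these same libraries, so the grouping is not independent of the data. Siglech and Ccr9, genes of proteins used in the sort, were read in each well as a check within the same libraries. In the order of wells just given, Siglech stood at 276, 443 and 206 CPM (counts per 1e+06 counts of the library, scaled by TMM) in pre-cDC, 835, 999.6 and 729 in lo-lo, 2039, 2367 and 1987 in lo-hi and 2537, 2844 and 2992 in pDC. Ccr9 stood at 32.8, 44.6 and 21.6 CPM in pre-cDC, 65.9, 69.3 and 62.8 in lo-lo, 251, 221 and 219 in lo-hi and 465, 397 and 520.2 in pDC. Neither gene overlapped between any pair of these well groups, and by the deposited labels every group held libraries from more than 1 of these levels. A paragraph near the end gives the counts of calls and the range of member medians under the deposited labels. It also gives Mcm6 by label and counts in the 4 wells on which both assignments match. Other results below have no value by label, apart from some fitted changes in the last section.

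**Figure D1:**
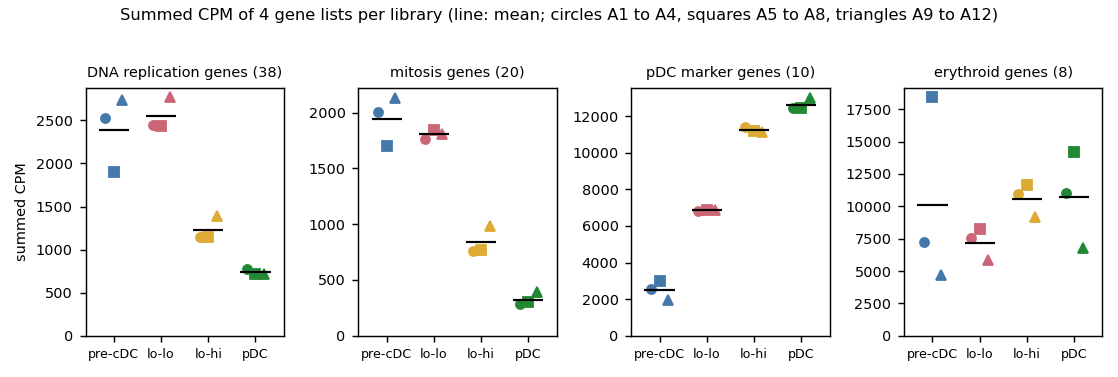
Summed CPM per library for the 38 DNA replication genes, 20 mitosis genes, 10 pDC marker genes and 8 erythroid genes; each symbol is 1 library and each line the mean of 3. The DNA replication genes lie between 1906 and 2771 in the pre-cDC and lo-lo libraries, between 1143 and 1386 in lo-hi and between 714 and 779 in pDC.

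Replication begins when origins are licensed. ORC and CDC6 load the MCM2-7 ring onto DNA in G1, and CDC45 and GINS then turn it into the active CMG helicase. DNA polymerase alpha-primase starts each strand, RFC loads the PCNA clamp, polymerases delta and epsilon extend the strands, and FEN1 and DNA ligase I join the lagging strand fragments. Genes of this machinery are expressed mainly in dividing cells, where E2F factors drive many of them at the transition from G1 to S phase. Among dendritic cells, precursors in the marrow still divide whereas mature pDCs are known to divide little.

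Because E2F factors act through promoter DNA, the promoters of the members were read for E2F-type letters. The letters searched were TTTCCCGC, TTTCGCGC, TTTGCCGC and TTTGGCGC on either strand. The windows were those of RefSeq on GRCm38.p6, which run from 250 bases before to 50 bases after a gene's start, and 32 of the 38 measured members had at least 1. These letters stood in a window of 12 of the 32 members (37.5%), against 2.6% of all 27025 genes with a window (704 genes). Counted by window, the shares were 31.6% of 38 and 2.26% of 32851. The 12 members were Cdc6, Gins3, Lig1, Mcm3, Mcm5, Mcm6, Mcm7, Orc1, Pola1, Pold1, Rfc3 and Uhrf1. The letters CCAAT, which bind the factor NF-Y, stood in a window of 65.6% of the members and of 41.1% of all genes. The sequences printed here, on the gene's strand, are the 200 bases before the start of the 4 members that have E2F-type letters there in a stretch free of annotated exons. They are chr8:75109309-75109508 (plus strand) for Mcm5, chr1:128359706-128359905 (minus strand) for Mcm6, chrX:93632156-93632355 (minus strand) for Pola1 and chr17:56304113-56304312 (plus strand) for Uhrf1, with the E2F-type letters in capitals. The first 3 lie outside annotated genes, and the stretch of Uhrf1 lies in an intron of transcripts that start further upstream.
Mcm5: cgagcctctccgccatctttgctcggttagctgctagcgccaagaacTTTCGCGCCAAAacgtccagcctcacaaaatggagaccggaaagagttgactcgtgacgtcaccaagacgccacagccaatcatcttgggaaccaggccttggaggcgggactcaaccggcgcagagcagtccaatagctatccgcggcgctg
Mcm6: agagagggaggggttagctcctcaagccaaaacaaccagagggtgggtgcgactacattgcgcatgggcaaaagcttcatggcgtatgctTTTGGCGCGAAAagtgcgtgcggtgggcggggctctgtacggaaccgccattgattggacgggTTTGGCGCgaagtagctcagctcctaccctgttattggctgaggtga
Pola1: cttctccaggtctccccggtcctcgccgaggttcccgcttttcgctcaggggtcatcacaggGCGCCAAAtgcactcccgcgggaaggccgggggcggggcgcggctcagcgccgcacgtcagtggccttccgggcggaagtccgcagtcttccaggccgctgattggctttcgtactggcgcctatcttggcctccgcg
Uhrf1: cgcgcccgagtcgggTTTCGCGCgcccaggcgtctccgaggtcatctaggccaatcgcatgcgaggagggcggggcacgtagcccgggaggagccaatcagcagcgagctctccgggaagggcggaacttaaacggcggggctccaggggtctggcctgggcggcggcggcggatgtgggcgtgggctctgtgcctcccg
In Mcm5 and in Mcm6, matches on opposite strands shared bases and were printed as 1 run of capitals, and Mcm6 had a further match closer to its start. A match of letters is a description and not a site of binding.

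Libraries held between 1801463 and 5995971 counts in total (median 3087455). The floor of detection was taken as 3 counts, which is 0.5 to 1.67 counts per 1e+06 depending on the library. Summed over 10 pDC marker genes, the libraries ranged from 1949 to 3001 CPM in pre-cDC, 6833 to 6883 in lo-lo, 11139 to 11379 in lo-hi and 12431 to 12976 in pDC. The summed CPM of 9 cDC lineage genes was highest in pre-cDC (548 to 657) and lowest in pDC (219 to 236). Both lists hold transcription factor genes, the kind of gene in the source values used to match the wells. These 2 sums are therefore not independent of the grouping. Marker lists of other marrow cells were also detected, although the methods describe removal of cells of other lineages by antibody. The 10 granulocyte genes summed to between 3258 and 20683 CPM, the 8 erythroid genes to between 4692 and 18435 CPM, the 9 B cell genes to between 69.9 and 163 CPM and the 6 T and NK cell genes to between 11.7 and 60.3 CPM. Of these 33 genes, the test over the 4 populations called only Cd79b of the B cell list. Of 6 monocyte genes it called 4, and their summed CPM ranged from 2113 to 3325. Xist was at 26.6 to 58.4 CPM in wells A9 to A12 and at 218 or above in the other 8, and Eif2s3y, on the Y chromosome, was at 40.2 to 58.6 CPM in A9 to A12 and at 3.47 or below in the others. The 4 populations of 1 row of 4 wells thus shared a sex-linked profile. A row of 4 wells here means a run of adjacent wells (A1 to A4, A5 to A8 or A9 to A12) and not a row of the plate. In bulk libraries, fewer dividing cells in a population and less RNA of these genes per cell cannot be told apart.

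The DNA replication genes were high in the pre-cDC and lo-lo libraries, lower in lo-hi and lowest in pDC. The edgeR quasi-likelihood test over the 4 populations, with Benjamini-Hochberg adjustment over all genes tested and a cutoff of 0.01, called 35 of 38 members, against 19.9% of all genes. Orc1, Pold2 and Fen1 were not called. The summed CPM of the 38 genes was 2389 ± 431 in pre-cDC, 2550 ± 191 in lo-lo, 1225 ± 139 in lo-hi and 738 ± 35.7 in pDC (SD, n = 3). The mean was highest in lo-lo for 26 members and in pre-cDC for 12, and it was lowest in pDC for 36 and in lo-hi for 2. The order lo-lo above lo-hi above pDC held for the means of 36 members.

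**Figure D2:**
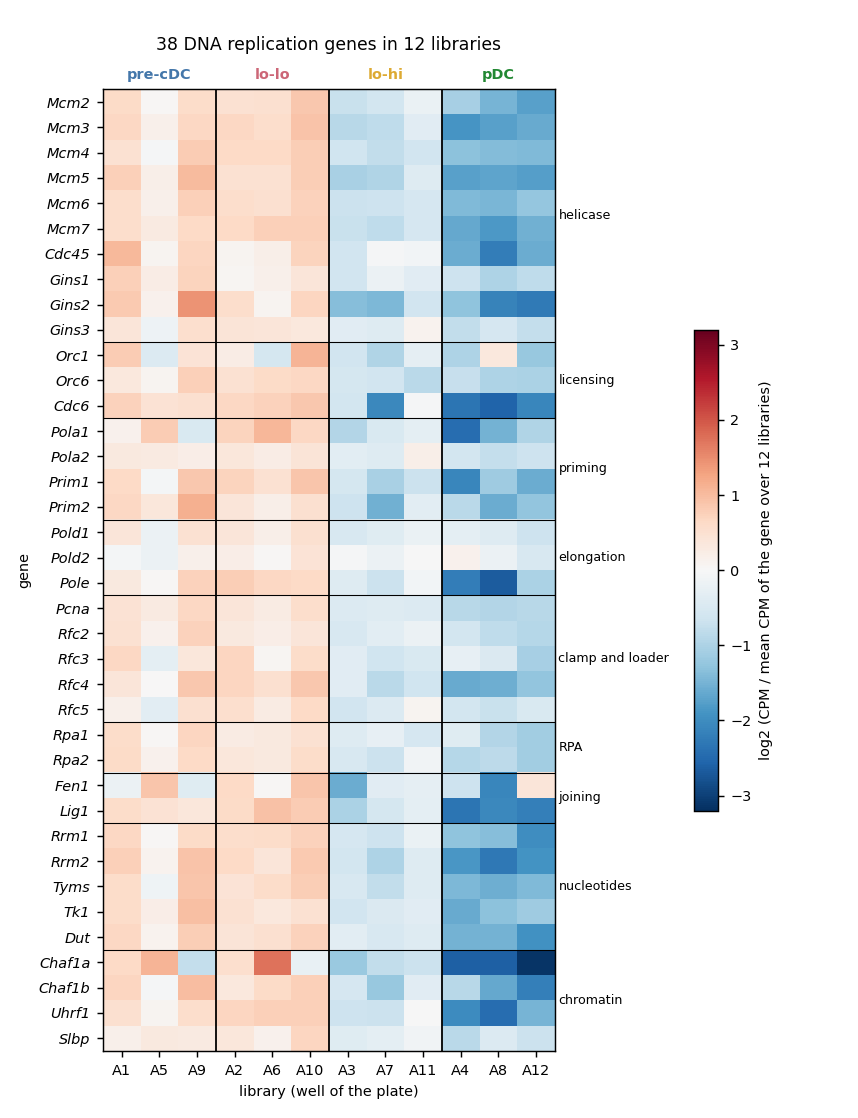
Each row is 1 of the 38 measured genes, grouped by role, and each column 1 library, grouped by population; colour gives log2 of the CPM over the gene's mean CPM in 12 libraries. Most rows are above their mean in all 6 pre-cDC and lo-lo libraries and below it in all 6 lo-hi and pDC libraries. Pold2 differs least by population, while Orc1 and Fen1, near the floor, vary between libraries of the same population.

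The MCM ring and its partners CDC45 and GINS form the helicase that opens the DNA. All 10 of their genes were called lower in pDC than in pre-cDC, by a median of 2.03 on the log2 scale (range 1.01 to 2.63). Of all genes tested 10.4% were called lower in this comparison, the share to set beside the count of each role below. Mcm6 (chr1:128331590-128359664, minus strand), a ring subunit, is described in full because it had the highest mean CPM of this role. It stood at 158, 120.5 and 183 CPM in pre-cDC, 159, 153 and 180.0 in lo-lo, 66.3, 67.8 and 74.4 in lo-hi and 40.02, 39.2 and 45.6 in pDC. The pre-cDC and lo-lo libraries overlapped, all 3 lo-hi libraries were below both, and all 3 pDC libraries were below lo-hi. Its log2 fold change was -1.24 (SE 0.16, edgeR adjusted p = 1.77e-05) in lo-hi over lo-lo and -0.74 (SE 0.17, edgeR adjusted p = 0.0174) in pDC over lo-hi, the latter above the cutoff. Among the other ring subunits the fitted fold between pre-cDC and pDC ran from 3.51 for Mcm2 and 3.55 for Mcm4 to 5.35 for Mcm5.

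Gins2 (chr8:120578633-120589304, minus strand), a subunit of the GINS complex, had the largest fitted change of all members called in lo-hi over lo-lo. Its values were 22.5, 13.9 and 33.8 CPM in pre-cDC, 18.6, 13.3 and 20.1 in lo-lo, 4.86, 4.66 and 8.27 in lo-hi and 5.11, 2.84 and 2.60 in pDC. The lo-hi and pDC libraries overlapped and all of them lay below every lo-lo library. The change from lo-lo to lo-hi was -1.62 (SE 0.33, edgeR adjusted p = 0.00166), a call that was lost without A3, without A7 or without A10. The other GINS genes changed less at this step, and neither passed the cutoff. Gins1 stood at 25.4 ± 3.11 CPM in lo-lo and 16.9 ± 2.40 in lo-hi, and Gins3 at 17.9 ± 0.463 and 12.02 ± 2.49 (SD, n = 3). Cdc45, the third part of the helicase, stood at 14.97 ± 3.69 CPM in lo-lo, 10.04 ± 2.01 in lo-hi and 3.45 ± 0.799 in pDC, and its difference between pDC and lo-hi (-1.46, edgeR adjusted p = 0.0147) missed the cutoff.

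The licensing genes mark origins before S phase, and 2 of 3 were called lower in pDC than in pre-cDC. Orc6 (chr8:85299632-85308278, plus strand), the smallest subunit of the origin recognition complex, had 33.4, 27.8 and 44.3 CPM in pre-cDC, 36.9, 40.3 and 41.3 in lo-lo, 17.9, 17.1 and 14.3 in lo-hi and 15.8, 13.3 and 13.02 in pDC. Its lo-hi libraries lay below all lo-lo libraries and overlapped pDC, with a log2 fold change of -1.25 (SE 0.19, edgeR adjusted p = 9.44e-05) in lo-hi over lo-lo and of -0.22 (95% interval -0.66 to 0.21) in pDC over lo-hi. Cdc6 (chr11:98907801-98923940, plus strand), the ATPase that helps ORC load the MCM ring, had 21.7, 17.9 and 18.6 CPM in pre-cDC, 20.4, 21.5 and 23.4 in lo-lo, 8.61, 3.10 and 12.7 in lo-hi and 2.55, 2.21 and 3.04 in pDC. Its lo-hi libraries differed more among themselves than those of most members, and the lowest of them, A7, was still above every pDC library. Cdc6 fell by 1.41 on the log2 scale from lo-lo to lo-hi and had the largest fitted change of the members called between lo-hi and pDC, -1.66 (SE 0.35, edgeR adjusted p = 0.00952). That last call was lost in 9 of the 12 fits that left out 1 library, with fitted values from -1.97 to -1.35. Orc1 (chr4:108579423-108614833, plus strand), the largest ORC subunit, was near the floor of 3 counts, at 3.51, 1.49 and 2.70 CPM in pre-cDC, 2.36, 1.37 and 4.24 in lo-lo, 1.33, 1.03 and 1.65 in lo-hi and 1.02, 2.53 and 0.868 in pDC. The pDC library A8 overlapped pre-cDC and lo-lo, and a difference was not detectable at these counts (edgeR adjusted p = 0.264 over the 4 populations).

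DNA polymerase alpha and primase lay down the RNA-DNA primers, and all 4 of their genes were called lower in pDC than in pre-cDC. Pola1 (chrX:93304767-93632155, minus strand), the catalytic subunit of polymerase alpha, stood at 51.8, 82.3 and 33.4 CPM in pre-cDC, 76.5, 98.3 and 74.6 in lo-lo, 24.3, 33.6 and 38.03 in lo-hi and 8.69, 16.4 and 23.9 in pDC. Within pre-cDC the highest library, A5, was the one in which 32 of 38 members were lowest, and the lowest, A9, was below the highest lo-hi library. Its difference between pDC and pre-cDC was -1.84 (SE 0.39, edgeR adjusted p = 0.00313), a call lost without A8. Prim1 (chr10:128015168-128030037, plus strand), the catalytic primase subunit, stood at 34.5, 21.3 and 40.5 CPM in pre-cDC, 36.3, 31.1 and 41.3 in lo-lo, 15.2, 10.9 and 13.8 in lo-hi and 5.28, 10.1 and 7.38 in pDC. All lo-hi libraries were below all lo-lo libraries and all pDC libraries below all lo-hi libraries, and only the first of these differences passed the cutoff, with a log2 fold change of -1.42 (SE 0.24, edgeR adjusted p = 0.000213). The accessory subunits Pola2 and Prim2 were 1.91-fold and 3.76-fold lower in pDC than in pre-cDC by the fit.

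**Figure D3:**
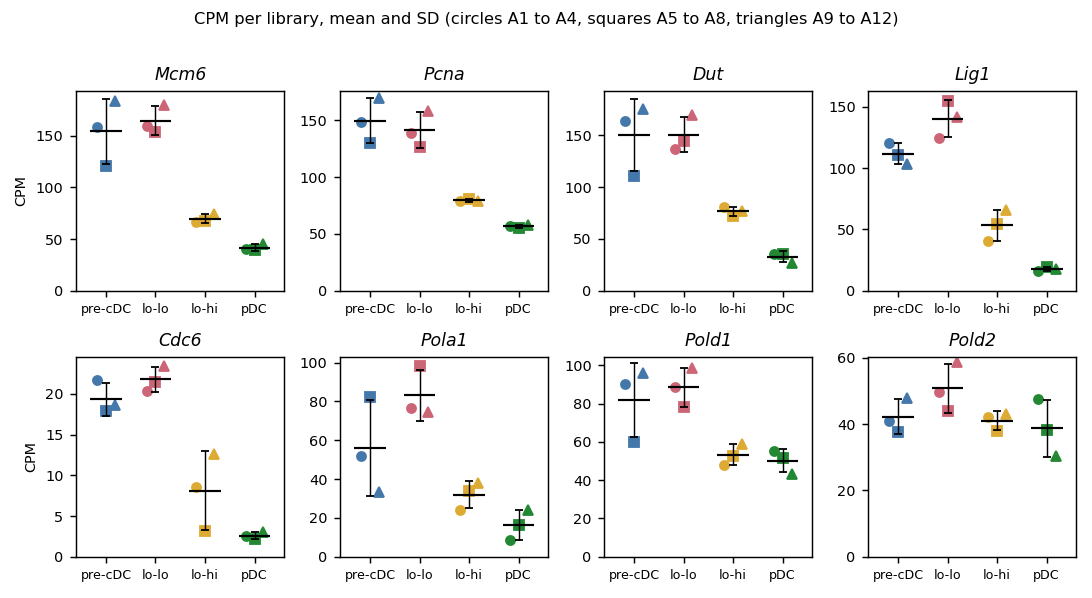
CPM of 8 members in each library, by population, with the mean and SD of 3 libraries; symbols mark the rows of 4 wells. Dut, Lig1 and Cdc6 step down from lo-lo to lo-hi and again to pDC, Mcm6 and Pcna pass the cutoff at the first of these steps and have all pDC libraries below lo-hi without passing it at the second, Pola1 spreads within pre-cDC, Pold1 steps down once, and Pold2 overlaps in all populations.

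Polymerase delta extends the lagging strand and polymerase epsilon the leading strand, and their 3 listed genes moved unequally. Pold1 (chr7:44532746-44548849, minus strand), the catalytic subunit of delta, was at 90.2, 60.00 and 95.9 CPM in pre-cDC, 88.9, 78.2 and 98.5 in lo-lo, 48.1, 52.8 and 58.97 in lo-hi and 55.3, 51.8 and 43.4 in pDC. The lo-hi and pDC libraries overlapped and all were below the lowest pre-cDC and lo-lo library. Pold1 was 1.67-fold lower in lo-hi than in lo-lo (edgeR adjusted p = 0.00781) and 1.63-fold lower in pDC than in pre-cDC (edgeR adjusted p = 0.00322), and the second call was lost without A1, A8, A9 or A12. Pold2 (chr11:5872180-5878292, minus strand), the regulatory subunit that binds Pold1, was at 40.99, 37.7 and 47.97 CPM in pre-cDC, 49.6, 44.02 and 58.7 in lo-lo, 42.2, 37.8 and 42.99 in lo-hi and 47.5, 38.2 and 30.4 in pDC. Its populations overlapped, the log2 difference between pDC and pre-cDC was -0.11 with a 95% interval of -0.48 to 0.26, and the adjusted p of edgeR over the 4 populations was 0.329. Pole (chr5:110286306-110337474, plus strand), the catalytic subunit of epsilon, was at 17.6, 14.4 and 23.6 CPM in pre-cDC, 24.5, 22.2 and 22.1 in lo-lo, 10.6, 8.79 and 13.2 in lo-hi and 3.07, 2.21 and 6.94 in pDC. Its pDC libraries lay below all others, with a log2 fold change of -1.53 (SE 0.32, edgeR adjusted p = 0.00859) from lo-hi to pDC, which was lost in 8 of the 12 fits that left out 1 library (values from -1.97 to -1.28).

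PCNA is the sliding clamp that tethers the polymerases, and RFC subunits load it. All 5 of these genes were called lower in pDC than in pre-cDC, by a median of 1.22 on the log2 scale, less than the 2.03 of the helicase genes. Pcna (chr2:132249162-132253314, minus strand) stood at 148, 130.4 and 169.9 CPM in pre-cDC, 138, 127 and 158 in lo-lo, 78.8, 80.7 and 78.8 in lo-hi and 57.2, 55.3 and 57.7 in pDC. Its libraries were close within lo-hi and within pDC, without overlap between these groups, and it was 1.78-fold lower in lo-hi than in lo-lo (edgeR adjusted p = 0.000545). From lo-hi to pDC the fitted log2 difference was -0.49 (SE 0.16, edgeR adjusted p = 0.128), above the cutoff. Rfc4 was the loader subunit with the largest difference between pDC and pre-cDC, -1.98 (SE 0.24), and Rfc5 the one with the smallest, -0.77 (SE 0.20). In pDC over lo-hi no gene of this role passed, and Rfc3 was at 18.8 ± 1.73 CPM in lo-hi and 17.9 ± 4.76 in pDC (SD, n = 3).

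Replication protein A covers single-stranded DNA, and Rpa1 and Rpa2 were both called lower in pDC than in pre-cDC. Rpa1 (chr11:75298166-75348324, minus strand), the large subunit, was at 98.4, 66.4 and 104 CPM in pre-cDC, 78.8, 80.9 and 91.8 in lo-lo, 48.8, 54.3 and 45.2 in lo-hi and 49.9, 34.1 and 29.9 in pDC. The lo-hi and pDC libraries overlapped and lay below all pre-cDC and lo-lo libraries. The pDC over pre-cDC difference was -1.22 (SE 0.19, edgeR adjusted p = 1.85e-05), and in lo-hi over lo-lo Rpa2 passed the cutoff whereas Rpa1, with -0.76 against -0.85, had an adjusted p of 0.0111 by edgeR.

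Lig1 (chr7:13277283-13311433, plus strand), DNA ligase I, seals the lagging strand fragments and had among the steepest declines of the list. It stood at 120.3, 111 and 103 CPM in pre-cDC, 124, 155 and 142 in lo-lo, 40.2, 54.3 and 65.6 in lo-hi and 16.01, 19.3 and 17.8 in pDC. Every lo-lo library was above every pre-cDC library, every lo-hi library below both, and every pDC library below lo-hi. The first of these arrangements was found in 2 of 38 members and in 12.4% of all genes tested. The log2 fold change was 0.33 (edgeR adjusted p = 0.311) in lo-lo over pre-cDC, -1.42 (SE 0.18, edgeR adjusted p = 8.77e-06) in lo-hi over lo-lo and -1.58 (SE 0.19, edgeR adjusted p = 2.77e-05) in pDC over lo-hi. The last 2 calls stood in all 12 fits that left out 1 library. Fen1 (chr19:10199132-10204169, minus strand), the flap endonuclease that trims the fragments before ligation, was at 1.17, 2.48 and 1.01 CPM in pre-cDC, 2.07, 1.37 and 2.46 in lo-lo, 0.442, 1.03 and 1.10 in lo-hi and 0.852, 0.316 and 1.74 in pDC. These values lie near the floor, the populations overlapped, and no difference was detectable at these counts (edgeR adjusted p = 0.278 over the 4 populations). The exons of Fen1 overlap those of Tmem258 and Gm10143 on the other strand. Whether this overlap has a part in the low counts of Fen1 was not tested.

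The enzymes of nucleotide supply make and guard the building blocks. All 5 of their genes were called lower in lo-hi than in lo-lo (2.83% of all genes) and in pDC than in pre-cDC (10.4%). Dut (chr2:125247190-125258608, plus strand), the dUTPase that keeps uracil out of DNA, had 164, 111 and 176 CPM in pre-cDC, 137, 145 and 169.7 in lo-lo, 80.6, 71.9 and 77.2 in lo-hi and 35.9, 35.7 and 26.9 in pDC. The pre-cDC and lo-lo libraries overlapped and the other steps had no overlap, with a log2 fold change of -0.97 (SE 0.18, edgeR adjusted p = 0.000443) and then -1.21 (SE 0.19, edgeR adjusted p = 0.000374). Rrm1 and Rrm2, the subunits of ribonucleotide reductase, were called at both steps too. Rrm2 fell from 137 ± 21.2 CPM in lo-lo to 56.6 ± 11.2 in lo-hi and 21.9 ± 3.37 in pDC (SD, n = 3), and Rrm1 from 114 ± 8.14 to 53.4 ± 8.82 and 25.8 ± 6.26. Tyms, thymidylate synthase, and Tk1, thymidine kinase, were called lower at the first of these steps, and at the second their adjusted p by edgeR was 0.0206 and 0.0167.

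Chromatin is rebuilt behind the fork by the assembly factor CAF-1, of which Chaf1a and Chaf1b encode the larger subunits, while UHRF1 helps to carry DNA methylation over to the new strand and SLBP binds histone mRNA. All 4 genes were called lower in pDC than in pre-cDC. Uhrf1 (chr17:56303321-56323486, plus strand) stood at 99.8, 73.9 and 103 CPM in pre-cDC, 112, 118 and 119 in lo-lo, 43.95, 43.5 and 69.4 in lo-hi and 17.2, 12.95 and 24.7 in pDC. Its lo-lo libraries were all above pre-cDC, its lo-hi libraries below both, and its pDC libraries lowest. The first of these differences was above the cutoff, at 0.33 (edgeR adjusted p = 0.402). Lo-lo libraries all above pre-cDC were found in 2 of 38 members and in 12.4% of all genes tested. The change was -1.17 (SE 0.20, edgeR adjusted p = 0.000289) from lo-lo to lo-hi and -1.52 (SE 0.22, edgeR adjusted p = 0.000192) from lo-hi to pDC. Chaf1a is named for its spread, a choice made after its values were seen. It stood at 17.9, 24.3 and 6.76 CPM in pre-cDC and 16.8, 38.6 and 9.83 in lo-lo, so that A9 and A10 were the lowest libraries of their groups and A5 and A6 the highest. In pDC it was at 1.87, 1.90 and 1.30 CPM, and its fitted difference from pre-cDC, -3.15, was the largest of the 38 but had the largest SE as well, 0.70 (edgeR adjusted p = 0.00579). Slbp had the smallest difference of this role, -0.91 (SE 0.19).

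From pre-cDC to lo-lo, the members showed no difference past the cutoff. The word step stands here for a comparison between populations and not for descent. In the study's cultures, pre-cDCs gave rise to cDCs. In this step edgeR called 0 of 38 in either direction, against 1.55% of all genes lower and 1.61% higher, DESeq2 also called 0, and 1 member (Gins1, -0.38) had an unadjusted p under 0.05 by edgeR. The median log2 fold change of the members was 0.13, with a range of -0.44 to 0.59 and 26 above 0, and the median over all genes tested was 0.04. This median depended on single libraries, and of the fits that left out 1 library it was below 0 only without the pre-cDC library A5. Without A5, the median was -0.07 with 21 members below 0, and still 0 were called. In that fit 6 members had an unadjusted p under 0.05, and the smallest adjusted p of a member was 0.0734 by edgeR. Without A9 the median was 0.19 with 5 members below 0, and without A10 it was 0.03 with 15. A5 was the lowest of the 3 pre-cDC libraries for 32 of 38 members and had the highest erythroid sum of all libraries, 18435 CPM against 4692 to 14222 in the others. Whether erythroid RNA has a part in its lower values was not tested.

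From lo-lo to lo-hi, 24 of 38 members were called lower, against 2.83% of all genes, and 0 higher, against 2.33%. All 38 fitted differences were below 0, from -1.80 to -0.31, with a median of -1.13 beside 0.01 for all genes. In 37 of the 38 all 3 lo-hi libraries lay below all 3 lo-lo libraries, an arrangement found in 13.9% of all genes tested. By role, 7 of 10 helicase genes, 2 of 3 licensing genes, 1 of 4 priming genes, 2 of 3 polymerase genes, 3 of 5 clamp genes, 1 of 2 RPA genes, Lig1, 5 of 5 nucleotide genes and 2 of 4 chromatin genes were called. The count of members was 17 without A3 and 30 without A4.

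**Figure D4:**
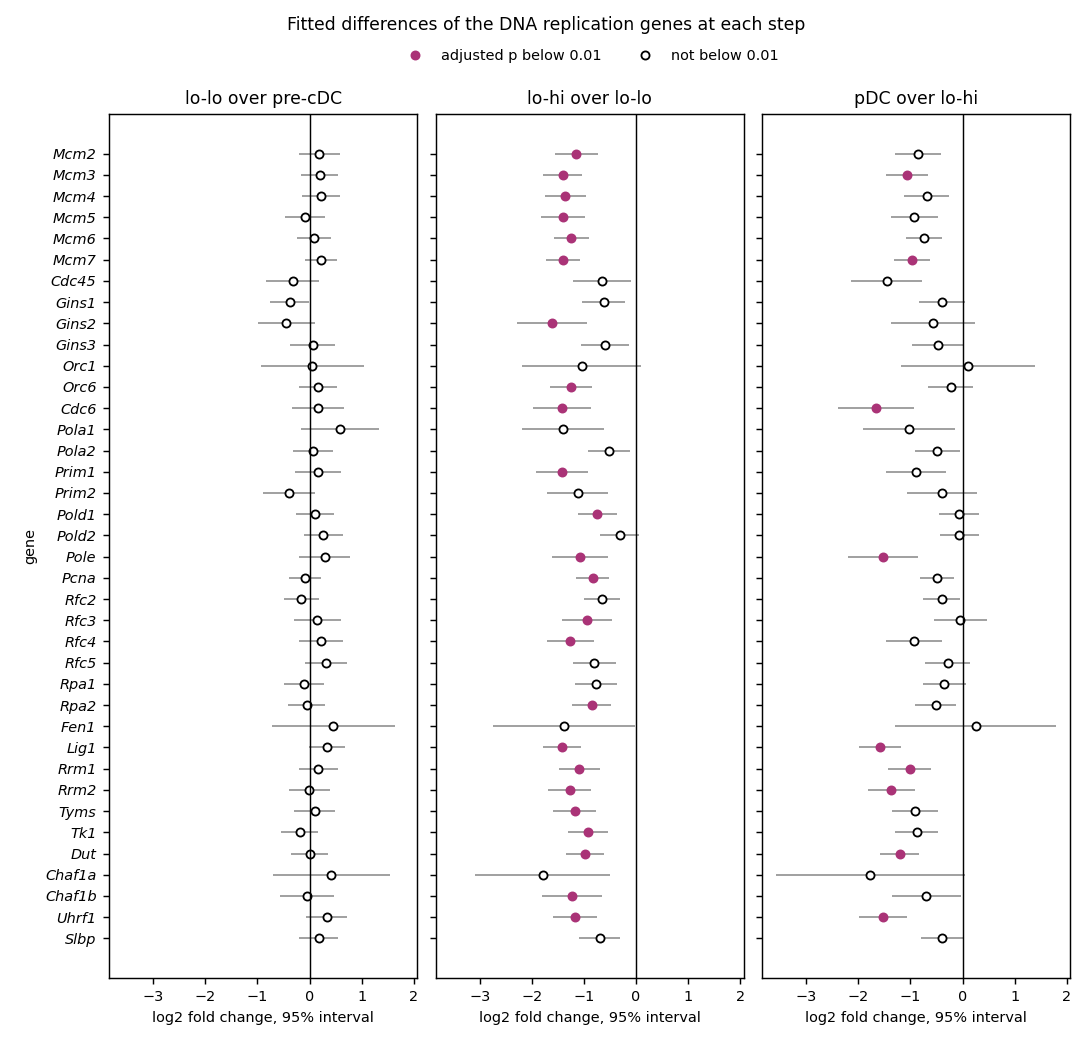
Fitted log2 fold change of each member (point) with its 95% interval (line) for lo-lo over pre-cDC, lo-hi over lo-lo and pDC over lo-hi; filled points have an adjusted p below 0.01 by edgeR. No point is filled in the first panel, 24 are in the second and 9 in the third, and all filled points lie below 0.

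From lo-hi to pDC, 9 members were called lower, against 0.844% of all genes, and 0 higher, against 0.118%. They were Mcm3, Mcm7, Cdc6, Pole, Lig1, Rrm1, Rrm2, Dut and Uhrf1. The median log2 fold change of the 38 was -0.72 beside 0.03 over all genes, 36 were below 0, and 24 had an unadjusted p under 0.05. In 27 all 3 pDC libraries were below all 3 lo-hi libraries, as in 9.1% of all genes. The count of calls depended on single libraries and on pairing. It was 4 without the pDC library A8 or without the lo-hi library A11, 14 without the pre-cDC library A5, and 16 with the row of 4 wells as a replicate block, which held all 9. Orc1 and Fen1, both near the floor, were the members with a fitted value above 0. Markers of granulocytes, T and NK cells and B cells had fitted values below 0 at this step as well. All 10 granulocyte genes had a fitted value below 0, with a median of -1.47, and 7 had an unadjusted p under 0.05 by edgeR, although 0 were called. Their summed CPM ran from 9893 to 20683 in lo-hi and from 3258 to 6621 in pDC, and none of the 10 was at 0 in a library. The 6 T and NK cell genes and the 9 B cell genes were also below 0, with medians of -1.42 and -0.63 and 0 called. Of the 8 erythroid genes 5 were below 0 and 3 above, with a median of -0.01. Of the 6 monocyte genes 5 were below 0 and 1 above, with a median of -0.64, and 0 were called in either list. The part of these markers in the values of the members was not tested. From lo-lo to lo-hi, all 10 granulocyte genes had a fitted value above 0 (median 0.55, 0 called), and their part at that step was not tested either.

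Over the whole range, pDC over pre-cDC called 35 of 38 members lower, against 10.4% of all genes, and 0 higher, against 11.4%. The fitted fold ran from 1.08 (Pold2) to 8.89 (Chaf1a) with a median log2 fold change of -1.90 beside 0.05 over all genes, and 34 members had all pDC libraries below all pre-cDC libraries, as had 17.9% of all genes. Grouped by role, the median was -2.17 for chromatin, -2.03 for helicase, -1.99 for nucleotide supply, -1.88 for priming, -1.67 for the 2 genes of lagging strand joining (Lig1 called, Fen1 not called), -1.32 for RPA, -1.31 for licensing, -1.22 for the clamp and its loader and -0.71 for the elongating polymerases. In the same comparison the 10 granulocyte genes were all below 0, with a median of -0.86 and 0 called, and 4 of the 6 monocyte genes were called lower, and their part in the result was not tested. Members of 1 role differed among themselves as much as roles did, from -0.11 for Pold2 to -2.32 for Pole among the polymerases. In pDC over lo-lo 35 members were called lower (7.08% of all genes) and 0 higher (6.71%), with a median of -1.99. In lo-hi over pre-cDC 25 were called lower (6.32%) and 0 higher (6.76%), with a median of -0.98. These comparisons share libraries with the ones above and are given for completeness of the pairs.

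The 12 members with E2F-type letters in a promoter window had a median of -2.03 in pDC over pre-cDC (range -2.91 to -0.71), and the 20 with a window but without these letters a median of -1.88 (range -3.15 to -0.11). The ranges overlapped over most of their length.

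Other genes of DNA replication were read from a wider list of 52. The test over the 4 populations called 33 of them, against 19.9% of all genes. In pDC over pre-cDC 30 were called lower, against 10.4% of all genes, and 2 higher, against 11.4%, with a median of -1.31. Mcm10, which helps to activate the helicase, had 23.4, 18.8 and 20.6 CPM in pre-cDC, 17.1, 19.1 and 21.9 in lo-lo, 6.18, 7.76 and 4.96 in lo-hi and 1.87, 1.58 and 2.60 in pDC, and Gmnn, the inhibitor of CDT1, was 5.78-fold lower in pDC than in pre-cDC (edgeR adjusted p = 2.05e-09). Ticrr, which helps to load CDC45, was 8.48-fold lower (edgeR adjusted p = 5.93e-07). Orc5, of the origin recognition complex, was not called and was at 133 ± 29.5 CPM in pre-cDC and 107 ± 11.7 in pDC (SD, n = 3). The genes called higher, Orc4 and the topoisomerase gene Top1, were named for that after their values were seen. Orc4 rose from 14.6, 16.9 and 17.2 CPM in pre-cDC to 26.1, 28.4 and 33.8 in pDC and Top1 from 134, 147 and 116 to 186, 254 and 262. Neither gene overlapped between these groups, an arrangement found in this direction in 21.5% of all genes.

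Among polymerase and maturation genes, Top2a, a topoisomerase that untangles replicated DNA, fell from 504 ± 47.5 CPM in lo-lo to 185 ± 35.02 in lo-hi and 67.2 ± 16.7 in pDC (SD, n = 3). Dscc1 and Chtf18, subunits of an alternative clamp loader, were both called lower in pDC than in pre-cDC, with log2 fold changes of -4.12 (SE 0.40) and -2.94 (SE 0.61), and both were near the floor in pDC. Dna2, a nuclease that trims long flaps, was the only replication gene of either list called in lo-lo over pre-cDC. It had 47.1, 48.6 and 42.6 CPM in pre-cDC, 16.8, 16.4 and 17.9 in lo-lo, 7.95, 6.21 and 12.1 in lo-hi and 4.94, 1.90 and 2.60 in pDC, and thus fell by 1.43 on the log2 scale (SE 0.21, edgeR adjusted p = 7.79e-05) at a step at which no member was called. In nucleotide supply and chromatin, the histone chaperone gene Asf1b and the serine hydroxymethyltransferase gene Shmt1 were called lower in pDC than in pre-cDC, by 6.64 and 3.94 times. Rrm2b, the reductase subunit that is not tied to S phase, was not called, at 1848 ± 406 CPM in pre-cDC and 1489 ± 170.2 in pDC (SD, n = 3), beside the 6.27-fold lower Rrm2.

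Of 19 regulators of the G1 to S transition, the test over the 4 populations called 10, against 19.9% of all genes. Ccna2, the cyclin of S phase, stood at 118, 71.9 and 128 CPM in pre-cDC, 90.7, 85.7 and 113 in lo-lo, 42.6, 30.5 and 49.6 in lo-hi and 12.1, 12.95 and 17.8 in pDC. The repressors E2f7 and E2f8, known as targets of E2F factors themselves, were 6.94-fold and 6.26-fold lower in pDC than in pre-cDC and both were called, whereas E2f1, E2f4, E2f5, E2f6, Rb1, Rbl2, Tfdp1, Tfdp2 and Cdc25a were not called over the 4 populations. The list's median was -0.70 in pDC over pre-cDC. All 20 mitosis genes were called over the 4 populations (19.9% of all genes) and lower in pDC than in pre-cDC (10.4%), with a median of -2.79. Their median was -1.22 in lo-hi over lo-lo (19 called lower, against 2.83% of all genes) and -1.38 in pDC over lo-hi (16, against 0.844%). The DNA replication members had -1.13 and -0.72, a difference between the lists that was not tested. Birc5, the survivin gene of the chromosomal passenger complex, stood at 243, 227 and 268 CPM in lo-lo, 116, 119.5 and 152 in lo-hi and 47.00, 39.8 and 45.99 in pDC. The mitotic kinase genes Aurkb and Ttk and the kinesin gene Kif20a had the largest differences of that list between pDC and pre-cDC, with log2 fold changes of -3.35, -3.08 and -3.28, and Kif20a was near the floor.

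The members followed each other across the libraries. The Pearson correlation of a member's log2 CPM with the mean of the other members, over 12 libraries, had a median of 0.956 and was above 0.9 for 31 of 38, highest for Mcm3 (0.996). It was lowest for Fen1 (0.539), Pold2 (0.588), Orc1 (0.625), Pola1 (0.822), Chaf1a (0.827) and Rfc3 (0.83). The libraries share the difference between populations and their depth, so these values describe the pattern and carry no test. Within groups the same libraries tended to stand out, with A10 the highest lo-lo library for 31 members, A11 the highest lo-hi library for 29 and A9 the highest pre-cDC library for 24. For 14 members an exon overlaps that of a gene on the other strand, and for Mcm7 and Rpa1 that of another gene on the same strand. The strand setting of the counting is not given in the sources used here, so reads of such pairs cannot be told apart.

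Under the deposited labels these differences were not seen. In the same edgeR fit by label, 0 of 38 members and 0 of 15293 genes were called over the 4 labels and in each of the 6 pairs of labels. Between pairs, 0 members and between 138 and 344 genes had an unadjusted p under 0.05, and the median log2 fold change of the members ran from -0.40 to 0.09. With the label's replicate number as a replicate block the count of members called was also 0. By label, Mcm6 stood at 158, 159 and 66.3 CPM in replicates 1 to 3 of pre-cDC, 40.02, 120 and 153 in CCR9lo-B220lo, 67.8, 39.2 and 183 in CCR9lo-B220hi and 180.0, 74.4 and 45.6 in pDC, so each label spanned most of the range. In the 4 wells where label and well order name the same population, there is 1 library each and no test. In these, 37 of 38 members were lower in A12 (pDC) than in A1 (pre-cDC), against 48.7% of all genes, and 38 were lower in A7 (lo-hi) than in A6 (lo-lo), against 49%. Between A12 and A7, 36 members and 49.7% of all genes were lower in A12. Between A6 and A1, 25 members and 47.8% of all genes were lower in A6. The summed CPM of the members was 2525 in A1, 2433 in A6, 1143 in A7 and 714 in A12.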

How the data were processed

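The authors processed the SCRB-seq reads with zUMIs, mapped them with STAR (version 2.5.2b per the submitters' processing notes) to the mouse genome and assigned them to Ensembl genes on GRCm38. The table deposited by the authors gives raw whole-number counts, 1 row a gene and 1 column a well, with no scaling. Whether a count is a read or a molecular identifier is not given in the sources used here. Gene positions are those of GENCODE vM21 on GRCm38, where a symbol was found for 21410 identifiers out of 21754.

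The members and gene lists were chosen with earlier results of these data known. TMM set the library scale, genes needed a mean count of 1, and the main test was edgeR's quasi-likelihood one (version 4.0.16, R 4.3.3) in a robust fit of all 12 libraries with no covariate, adjusted after Benjamini-Hochberg with a cutoff of 0.01. The grouping follows wells and not the deposited labels, which were fitted as an alternative. Totals of 1801463 to 5995971 counts limit the precision of genes near the floor of 3 counts, and floors cover counting error only. The steps were tested on simulated data.

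Values in every library are given for the member with the highest mean CPM of each of 9 roles, for members not called over the 4 populations and for the 3 called members with the largest change at each step. Of other lists, the gene with the highest mean CPM and the 3 largest called changes in pDC over pre-cDC were named. Other genes were named after their values were seen, as stated there, and 1 gene that this rule names is not reported here.

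Libraries of the same row of 4 wells deviated together only in part, with a mean correlation of deviations of 0.118 over 18 pairs (-0.15 to 0.309), against -0.0586 over 36 other pairs. No label links rows to animals, and the study's legend names 3 individual mice. Xist and Y-linked genes set A9 to A12 apart but do not separate A1 to A4 from A5 to A8. They do not show that a row is 1 animal. Libraries that share a label number had a mean correlation of -0.158. The alternatives were DESeq2 1.42.0, its size factors, no filter or a mean count of at least 10, a cutoff of 0.05, the replicate block, fits of 6 libraries and leaving out each library.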

Additional observations from a re-analysis of the deposited data

How the results depend on the processing

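Low counts limit what can be said of Fen1 and Orc1. Grouped by the deposited labels, with or without their replicate number as a replicate block, 0 genes and 0 members were called in each comparison. With the rows of 4 wells as a replicate block, 743 genes in place of 483 were called in lo-lo over pre-cDC, and 346 genes and 16 members in place of 147 and 9 in pDC over lo-hi. The block changed no other count by over 1.5 times. Without a filter the same counts were 733, 344 and 16. A cutoff of 0.05 gave 907 genes in lo-lo over pre-cDC, 1321 in lo-hi over lo-lo, 327 genes and 15 members in pDC over lo-hi, 3332 genes in pDC over lo-lo and 3063 in lo-hi over pre-cDC. A fit of only the 6 libraries compared gave 1191 genes in lo-hi over lo-lo, in place of 790. Leaving out 1 library gave 280 to 662 genes in lo-lo over pre-cDC, 381 to 945 in lo-hi over lo-lo, and 65 to 213 genes and 4 to 14 members in pDC over lo-hi. DESeq2 and its size factors changed no count by over 1.5 times.

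Some fitted log2 fold changes turned in sign. Under the deposited labels, pDC over pre-cDC was 0.0586 for Orc1 and 0.63 for Fen1 (0.67 with the label's replicate block). Lo-hi over lo-lo was 0.42 for Gins2 and 0.14 for Prim1 (0.30 and 0.0787 with that block). pDC over lo-hi was 0.72 for Cdc6, 0.36 for Lig1 and 0.31 for Pole (0.92, 0.36 and 0.53 with that block). The pDC over pre-cDC value of Pold2 ran from -0.337 to 0.0266 over the fits that left out 1 library, the latter without the pDC library A12. These follow from which libraries enter each group.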
